A study of Mus musculus with 12 samples.

Results

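In non-CINs, the GFP- cells of the neonatal mouse cortex, 397 regions carried called enrichment ("peaks") of both H3K27ac and H3K27me3. They were found by merging peaks 500 bp or less apart in each list, keeping what both lists of a mark had in common, and taking every shared H3K27ac stretch that overlapped a shared H3K27me3 stretch by at least 1 bp. Of 34953 shared H3K27ac stretches, 397 met this rule, a share of 1.14%. With a single replicate of each mark there were 951 or 1414 such regions, and with peaks of a −log10 *q* of at least 4 there were 172. From the other side, 475 of 17550 shared H3K27me3 stretches were met (2.71%). The members were therefore chosen by the peak calls of the 4 non-CIN lists, and everything that those lists say about them is given as a description, with no test.

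The study separated cortical cells of *Gad67-GFP* heterozygote pups at postnatal day 2 by FACS into GFP+ cells, taken as immature cortical interneurons (CINs), and GFP- non-CINs, and performed native histone ChIP on each. All samples carried the same reporter allele and received no treatment, and each was a pool of tissue from several litters. H3K27ac and H3K27me3 were each measured in 2 replicates per population, which gives 8 lists of broad peaks, and 4 input samples entered through peak calling. Non-CINs are a mixture of every cortical cell without GFP, enriched for glutamatergic projection neurons and glia, so a region with both marks may carry them in the same cells or in different ones, and these cannot be told apart here.

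H3K27ac is an acetyl group on lysine 27 of histone H3 and marks active promoters and enhancers. H3K27me3 is placed on the same lysine by Polycomb repressive complex 2 and marks genes held silent, many of them regulators of development. A single H3 tail cannot hold both, so both marks at a locus lie on different tails, nucleosomes, alleles or cells. CpG-rich DNA is where Polycomb complexes are typically found in mammalian cells.

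The 8 lists held 36662 to 62505 peaks that covered 34.5 to 56.3 Mb. At promoters, taken as 1 kb upstream to 100 bp downstream of a transcription start site (TSS), 11 of 32 interneuron genes had an H3K27ac peak in each non-CIN list, against 23 and 20 in the CIN lists. *Dlx1* and *Dlx2*, which the paper names as relevant to CINs, had no promoter H3K27ac in either non-CIN list and had it in both CIN lists. Other genes of this list, such as *Lhx6*, *Nkx2-1* and *Sst*, had it in no list of either population. The lists for the other cell types did not separate the populations in this way. Pallial and projection neuron genes had promoter H3K27ac at 21 and 23 of 32 in non-CINs and 26 and 23 in CINs, and astrocyte and radial glia genes at 22 and 21 of 23 against 21 and 20. Oligodendrocyte lineage genes had it at 10 and 9 of 15 in non-CINs and 10 and 8 in CINs. Microglia genes had it at 5 and 4 of 15 against 3 and 5, and vascular and meningeal genes at 3 and 2 of 29 against 1 and 2.

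Both-marked sequences are printed for regions that stood high in both marks and for the highest-scored region of each kind with a single mark in CINs. A region was scored by its fold enrichment, the ratio of ChIP to input signal at the strongest peak over the both-marked bases. This was turned into a percentile within each list, and the lowest of the 4 non-CIN percentiles is the score. The sequences are up to 300 bases from the middle of the both-marked bases, on the plus strand of mm10 (GRCm38.p6), in lower case with CpG dinucleotides in capitals. Those at *AY036118*, *Gm26917* and *Dmrta2* were the 3 highest-scored promoter regions, and *Mid1* was one of the 5 highest-scored at no promoter. The short *Dmrta2* flank had H3K27me3 but no H3K27ac in CINs, and *Pnmal2* had H3K27ac but no H3K27me3 in CINs. The flank ends at chr4:109976692, shortly before the main *Dmrta2* stretch, which starts at chr4:109977261 and had H3K27ac in both CIN lists. *Olig2*, the regulator of the oligodendrocyte lineage, was added after its values were seen because it was both-marked over nearly its whole H3K27ac stretch.
AY036118, chr17:39847987-39848286: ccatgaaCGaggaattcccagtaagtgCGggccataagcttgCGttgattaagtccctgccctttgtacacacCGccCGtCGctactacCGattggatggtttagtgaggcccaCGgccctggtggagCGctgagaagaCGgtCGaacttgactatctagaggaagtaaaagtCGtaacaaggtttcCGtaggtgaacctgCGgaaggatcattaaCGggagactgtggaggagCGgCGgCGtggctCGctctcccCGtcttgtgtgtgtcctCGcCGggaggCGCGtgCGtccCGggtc
Gm26917, chr17:39844789-39845088: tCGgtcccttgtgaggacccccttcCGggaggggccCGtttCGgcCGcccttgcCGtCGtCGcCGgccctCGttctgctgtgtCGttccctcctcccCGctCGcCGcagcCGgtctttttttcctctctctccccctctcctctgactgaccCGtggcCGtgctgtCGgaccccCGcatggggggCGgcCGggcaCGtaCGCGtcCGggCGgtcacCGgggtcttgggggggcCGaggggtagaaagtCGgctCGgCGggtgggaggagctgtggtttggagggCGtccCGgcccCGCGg
Dmrta2, chr4:109985124-109985423: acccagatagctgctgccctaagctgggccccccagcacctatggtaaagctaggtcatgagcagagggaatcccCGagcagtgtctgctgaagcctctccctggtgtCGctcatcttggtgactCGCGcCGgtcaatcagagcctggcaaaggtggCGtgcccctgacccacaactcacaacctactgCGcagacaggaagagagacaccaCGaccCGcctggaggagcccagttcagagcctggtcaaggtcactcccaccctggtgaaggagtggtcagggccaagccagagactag
Mid1, chrX:169980616-169980915: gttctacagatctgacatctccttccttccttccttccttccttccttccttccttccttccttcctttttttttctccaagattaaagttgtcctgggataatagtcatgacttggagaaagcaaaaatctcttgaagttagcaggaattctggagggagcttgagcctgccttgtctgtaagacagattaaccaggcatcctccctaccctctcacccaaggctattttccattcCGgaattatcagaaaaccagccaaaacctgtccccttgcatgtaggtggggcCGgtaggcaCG
Dmrta2 flank, chr4:109976396-109976692: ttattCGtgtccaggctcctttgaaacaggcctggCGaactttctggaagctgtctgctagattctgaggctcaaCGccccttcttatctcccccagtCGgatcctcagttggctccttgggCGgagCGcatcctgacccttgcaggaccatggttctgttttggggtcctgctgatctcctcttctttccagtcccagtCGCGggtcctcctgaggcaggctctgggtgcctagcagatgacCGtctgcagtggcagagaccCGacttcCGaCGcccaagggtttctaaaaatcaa
Pnmal2, chr7:16945009-16945081: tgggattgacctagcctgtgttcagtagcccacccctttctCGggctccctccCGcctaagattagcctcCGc
Olig2, chr16:91224575-91224874: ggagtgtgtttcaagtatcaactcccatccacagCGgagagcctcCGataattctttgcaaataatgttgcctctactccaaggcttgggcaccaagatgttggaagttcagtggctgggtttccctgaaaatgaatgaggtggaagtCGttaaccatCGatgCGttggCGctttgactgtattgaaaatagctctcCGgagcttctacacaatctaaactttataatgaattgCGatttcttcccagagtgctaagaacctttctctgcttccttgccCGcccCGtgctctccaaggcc

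The CpG count shows how these sequences differ. *Gm26917* held 35 CpG and *AY036118* 26, whereas *Dmrta2* held 9, *Olig2* 10 and *Mid1* 3 in the same 300 bases. The *Dmrta2* flank held 12 in 297 bases and *Pnmal2* 3 in its 73 both-marked bases. Over all members the CpG observed to expected ratio had a median of 0.529, against 0.291 over all shared H3K27ac stretches and 0.221 over all shared H3K27me3 stretches. Members at a promoter had a median ratio of 0.589, between the 0.670 of all H3K27ac stretches at promoters and the 0.371 of all H3K27me3 stretches at promoters. Members at no promoter had a median of 0.444.

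The both-marked part of a region was usually short. Members had a median length of 1146 bp (44 to 38199 bp), against 835 bp over all shared H3K27ac stretches. Their both-marked bases had a median of 311 bp and ran from 1 bp to 10464 bp, with quartiles of 175 and 750 bp. This was a median of 38.7% of the member. In 115 members the overlap was under 200 bp, about the length of DNA in a nucleosome with its linker, and in 70 it was over 1000 bp. All together, 511 both-marked stretches made 306 kb, 0.791% of the shared H3K27ac bases and 0.999% of the shared H3K27me3 bases. Merging across gaps added to this: 389 members had both-marked bases under an unmerged peak of all 4 lists, and these made 80.5% of the both-marked length.

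The edge of the rule lay among regions that were nearly alike. Just inside, the overlap was 1 bp at *Tenm4*, 2 bp at *Ezr* and 4 bp at *Slc36a4*. Just outside, the gap to the next H3K27me3 stretch was 1 bp at *Foxo1*, 3 bp at *Neurog1* and 3 bp at *Triqk*. In all, 327 other H3K27ac stretches lay within 500 bp of an H3K27me3 stretch and 787 within 1000 bp, whereas the median gap over all non-members was 113041 bp.

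The regions took 4 positions in the H3K27me3 domain. With the stretches as defined, 171 members (43.1%, 95% Wilson interval 38.3 to 48.0) crossed 1 end of an H3K27me3 stretch, with a median of 218 both-marked bp. Another 110 (27.7%, 23.5 to 32.3) lay wholly inside an H3K27me3 stretch and so were both-marked over their whole length, with a median of 404.5 bp. In 107 (95% Wilson interval 22.8% to 31.5%) the H3K27ac stretch instead covered at least 1 whole H3K27me3 stretch, with a median of 481 both-marked bp in a median length of 3200 bp. The last 9 lay between H3K27me3 stretches and crossed an end of each. The order of these positions turned on how a domain was drawn: the inside share was 52.1% with H3K27me3 stretches joined across 3000 bp and 43.1% with the union of both lists. All intervals here are Wilson intervals at 95% and cover counting error only.

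**Figure D1:**
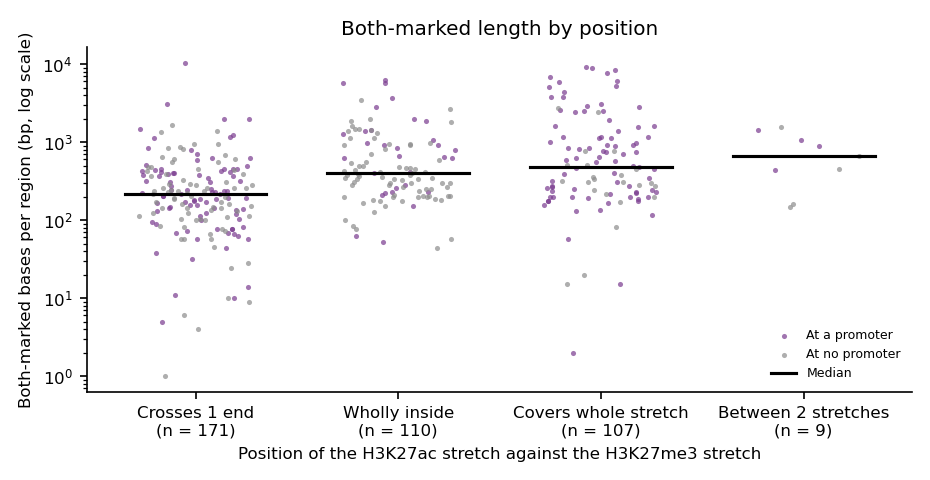
Both-marked bases per region in bp on a log axis, by position of the H3K27ac stretch against the H3K27me3 stretch. Each point is a region, coloured by whether it lies at a promoter, and the bar is the median: 218 bp at an end, 404.5 bp inside, 481 bp where a whole H3K27me3 stretch is covered and 666 bp between stretches.

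The promoter share is given by position, beside 31.8% of all shared H3K27ac stretches. Of the members that covered a whole H3K27me3 stretch, 84 of 107 lay at a promoter (78.5%, 69.8 to 85.2). At an end it was 92 of 171 (53.8%, 46.3 to 61.1), and inside an H3K27me3 stretch 31 of 110 (28.2%, 20.6 to 37.2). The promoter share also moved with length, from 32.8% of members under 1 kb to 90.9% from 10 kb on, and covering members were the longer ones, so the part of position was not tested. As the plot of both-marked length by position shows, the longest overlaps lay mainly in the covering and inside classes: of the 70 members with over 1000 both-marked bp, 32 covered a whole stretch, 24 lay inside, 11 crossed an end and 3 lay between stretches.

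Seen from the centre of the H3K27ac stretch, H3K27me3 was broad around the members. In non-CIN replicate 1, 53.7% of members had an H3K27me3 peak over the centre, 47.1% at 2 kb upstream on the plus strand and 18.4% at 10 kb upstream. In replicate 2 these shares were 57.7%, 57.2% and 22.9%. Over all shared H3K27ac stretches, H3K27me3 covered 0.910% and 1.02% of centres, less than at 5 kb upstream (1.95% and 2.92%). At 1 kb upstream and downstream the members' shares were 48.6% and 49.9% in replicate 1, both below the centre, and 59.2% and 64.2% in replicate 2, both above it. The CIN lists, which the rule did not use, gave 52.4% and 63.5% at the members' centres.

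**Figure D2:**
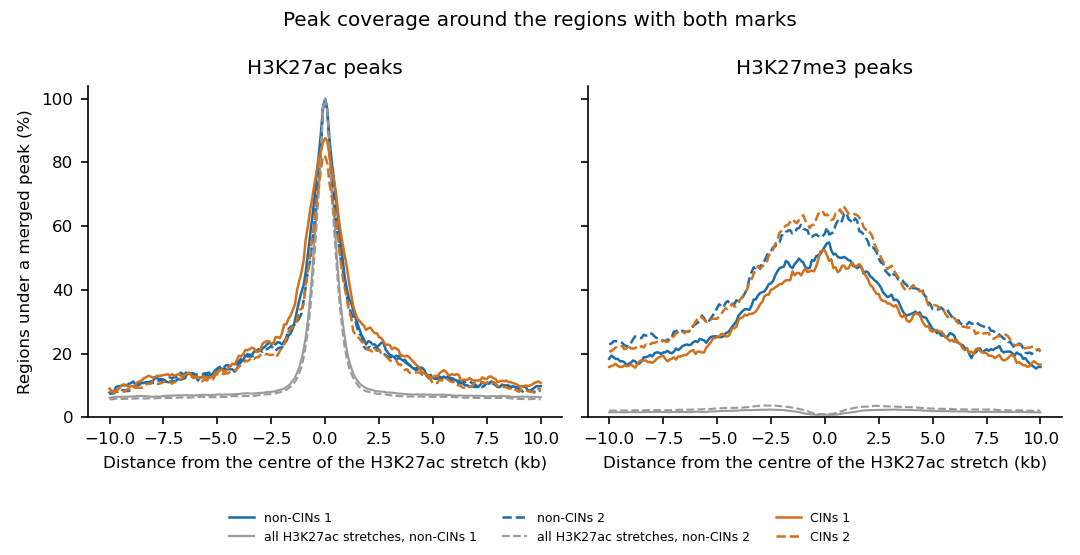
Share of regions (%) under a merged peak of H3K27ac (left) or H3K27me3 (right) by distance in kb from the centre of the H3K27ac stretch, for the 397 members in 2 non-CIN (blue) and 2 CIN (orange) lists and for all 34953 shared H3K27ac stretches in the non-CIN lists (grey). H3K27me3 covers 52.4% to 63.5% of the members' centres and 0.910% to 1.02% of the centres of all stretches.

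About the same number of regions lay at promoters and away from them. Of the 397 members, 211 (53.1%, 48.2 to 58.0) overlapped a promoter, against 31.8% of all shared H3K27ac stretches and 17.6% of all shared H3K27me3 stretches. The remainder lay in exons (35), introns (71) and between genes (80), at a median of 9391 bp from the nearest TSS. The both-marked bases themselves lay at a promoter in 123 members (31.0%, 26.6 to 35.7), so in 88 promoter members H3K27ac was at the promoter and the overlap beside it. Promoter members had a median of 386 both-marked bp and the others 288.5 bp.

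By gene, 179 of 10497 protein-coding genes with a shared non-CIN H3K27ac stretch at a promoter had a member there (1.71%). For long non-coding RNA genes it was 67 of 1923 (3.48%), and for microRNA genes 9 of 236 (3.81%). Several of these RNA genes share a region with a regulator gene, so the counts by class are not independent.

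The longest acetylated domains held H3K27me3 most often. Members made 180 of 20243 H3K27ac stretches under 1 kb (0.889%), 107 of 10307 from 1 to 2 kb (1.04%) and 61 of 4014 from 2 to 5 kb (1.52%). From 5 to 10 kb they made 27 of 331 (8.16%, 5.67 to 11.6) and from 10 kb on 22 of 58 (37.9%, 26.6 to 50.8). The share of H3K27ac bases that were both-marked was 0.400% to 0.545% in the 3 shorter classes, 2.25% from 5 to 10 kb and 10.01% from 10 kb on.

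**Figure D3:**
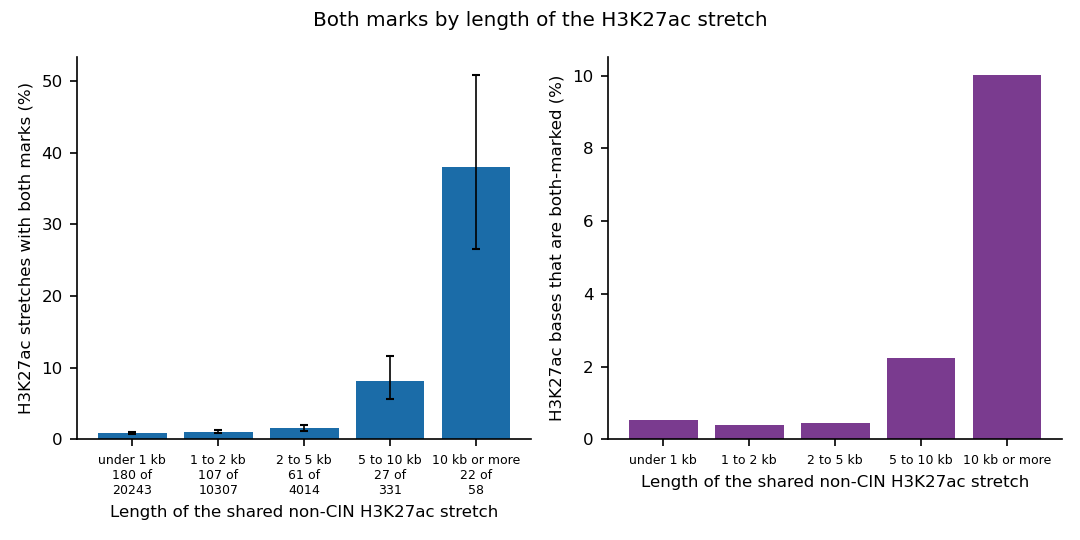
Share of shared non-CIN H3K27ac stretches that carry both marks (left, %, with 95% Wilson intervals and counts) and share of their bases that are both-marked (right, %), by length of the stretch. Both are highest from 10 kb on, at 37.9% of stretches and 10.01% of bases.

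The 22 members of this length included the neuronal POU factor *Pou3f3* (38.2 kb, with 11 separate H3K27me3 stretches inside), the homeobox gene *Meis2* (36.0 kb, 5 stretches), the neural stem cell factor *Sox2* (35.1 kb, 7), *Pax6* of cortical progenitors (21.3 kb, 7) and *Otx1* of deep-layer neurons (15.8 kb, 6). *Emx2* and *Lhx2*, which pattern the early cortex, and *Nfix*, *Nr2f1*, *Prdm16*, *Sox21* and *Olig2* were also among them. In 21 of 22 the acetylated domain covered whole H3K27me3 stretches, and 20 of 22 lay at a promoter, where 47 of all 58 stretches of that length did (81.0%). Only *Nfix* and *Gm38604* among them met a single H3K27me3 stretch. *Pou3f3*, *Meis2*, *Sox2*, *Nfix*, *Nr2f1*, *Sox21* and the miR-9 loci are named for their length after their values were seen.

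All 3 loci of miR-9, a microRNA of neural progenitors and neurons, lay in members of this length. The *Mir9-2* region was 38.0 kb long with 8918 both-marked bp in 11 H3K27me3 stretches, the *Mir9-1* region 36.7 kb with 2456 bp in 4, and the *Mir9-3* region 31.6 kb with 1178 bp in 3. The mature product is printed because it is the same from all 3 loci, at chr3:88215613-88215635, chr7:79505279-79505301 and chr13:83738821-83738843 on the plus strand (RefSeq, GRCm38.p6), with its seed, bases 2 to 8, in capitals.
miR-9-5p: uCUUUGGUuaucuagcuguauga
At *Mir9-2* the H3K27ac percentiles were 99.7 and 100 in non-CINs and 99.9 and 100 in CINs, and the H3K27me3 percentiles 81.0 and 89.1 in non-CINs and 73.0 and 71.0 in CINs. Regions at the neuronal microRNA miR-124 were likewise chosen after their values were seen. Of these, *Mir124-2hg* lay in a 2282 bp member that crossed an end of an H3K27me3 stretch and was 51.0% both-marked, with H3K27ac percentiles of 78.9 and 60.5 in non-CINs and 95.4 and 92.2 in CINs. *Mir124a-1* and its host gene *Mir124a-1hg* each lay in a short member (618 and 831 bp) wholly inside a 9015 bp H3K27me3 stretch. H3K27ac percentiles at *Mir124a-1hg* were 34.4 and 14.6 in non-CINs and 95.2 and 87.3 in CINs.

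The 10 promoter regions with the highest score, described by the values that chose them, included *AY036118*, *Gm26917*, *Dmrta2*, *Olig2*, *Sfi1*, *Gm38604*, *Gm10800*, *Id3* and *Prdm16*. *Dmrta2*, a doublesex-type transcription factor of the dorsal telencephalon, had a 9956 bp stretch (chr4:109977261-109987216) with 5953 both-marked bp. Its H3K27ac percentiles were 96.6 and 95.8 in non-CINs and 81.4 and 80.4 in CINs, and its H3K27me3 percentiles 97.0 and 96.3 in non-CINs and 99.1 and 98.5 in CINs. The percentiles of the populations are set side by side only: the non-CIN values chose the regions, and a percentile is a rank within a list of its own length. With 2 lists on each side the smallest exact two-sided *p* is 0.333, and no test of such a difference was run for a region.

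*Olig2* lay in a 10116 bp stretch (chr16:91221076-91231191) of which 8539 bp (84.4%) was both-marked. H3K27ac percentiles were 89.2 and 92.0 in non-CINs and 69.1 and 76.0 in CINs, and H3K27me3 percentiles 91.0 and 91.5 in non-CINs and 95.6 and 95.4 in CINs. In fold enrichment, H3K27me3 at *Olig2* overlapped between the populations, at 4.86 and 5.91 in non-CINs and 5.47 and 6.65 in CINs. *Id3*, an inhibitor of basic helix-loop-helix factors, had H3K27ac percentiles of 83.1 and 89.5 in non-CINs and 34.4 and 73.6 in CINs, with H3K27me3 at 95.0 and 89.8 against 95.1 and 94.6. *Prdm16*, a regulator of radial glia, had H3K27ac at 95.1 and 93.6 in non-CINs and 75.0 and 84.4 in CINs, and H3K27me3 at 84.8 and 82.0 against 93.4 and 96.6. At *Id3* and *Prdm16* the both-marked bases lay at no promoter. In fold enrichment, H3K27ac overlapped between the populations at both. It was 5.53 and 7.80 in non-CINs against 3.52 and 5.91 in CINs at *Id3*, and 6.98 and 8.55 against 4.72 and 6.99 at *Prdm16*.

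The regions with the most both-marked bases were *Gm38604* (10464 bp), *Pax6* (9138 bp), *Mir9-2* (8918 bp), *Olig2* (8539 bp) and *3110006O06Rik* (7614 bp). *Gm38604* and *3110006O06Rik* are non-coding loci that follow each other on chromosome 13, at 15193 and 24198 bp from a TSS of the nuclear receptor gene *Nr2f1*. At *Pax6*, H3K27ac percentiles were 94.2 and 96.4 in non-CINs and 88.6 and 89.6 in CINs, and H3K27me3 percentiles 69.4 and 83.8 in non-CINs and 96.4 and 97.2 in CINs. In fold enrichment its H3K27ac overlapped between the populations, at 6.82 and 9.31 in non-CINs and 5.83 and 7.75 in CINs.

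Some of the highest regions lay in DNA that occurs in many copies. The chromosome 17 interval of *AY036118* and *Gm26917* is known to hold a copy of the ribosomal RNA repeat, and the chromosome 2 interval of *Gm10800* and *Gm10801* satellite DNA. At *Gm26917* the fold enrichment over input was 7.75 and 9.24 for H3K27ac and 23.2 and 17.9 for H3K27me3 in non-CINs, and 7.37 and 11.1 and 22.2 and 15.6 in CINs. At *Olig2* the folds in non-CINs were 6.11 and 8.22 for H3K27ac and 4.86 and 5.91 for H3K27me3, so it was the H3K27me3 fold that lay furthest apart between these regions. In all, 12 members were at percentile 80 or above in all 8 lists, of which 7 lay wholly inside an H3K27me3 stretch. These 7 were at *Sfi1*, *Gm26917*, *AY036118*, *Gm10800*, *Gm10801* and *Kctd16*, and 117572 bp from *Vmn1r238*. In 8 members at least 50% of the bases were repeat-masked, all 8 lay wholly inside an H3K27me3 stretch, and 7 had both marks in all CIN lists. The part of copy number in these calls was not tested. Without the 12 the inside share was 26.8%, and without the 8 it was 26.2%.

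At no promoter, the highest-scored regions were at *Lipg*, an endothelial lipase gene (in an exon), *Kctd16*, whose protein joins the GABA-B receptor (intron), *Mid1*, a ubiquitin ligase gene that spans the pseudoautosomal boundary (intron), *Gm10801* (intron) and 24760 bp from *Ly6c2*. *Mid1* had H3K27ac percentiles of 99.9 and 98.1 in non-CINs and 93.8 and 96.0 in CINs, and H3K27me3 percentiles of 98.1 and 84.5 in non-CINs and 90.2 and 88.6 in CINs. Its printed sequence opens with a simple repeat. The *Lipg* region had H3K27ac percentiles of 96.2 and 95.8 in non-CINs, and 73.3 in CIN replicate 1. In CIN replicate 2 an H3K27ac peak lay over the region but not over its both-marked bases.

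Across members, the strength of a mark was alike between replicates, with a Spearman rho of 0.677 for H3K27ac (n = 396) and 0.739 for H3K27me3 (n = 390) in non-CINs. Between the marks it was -0.159 in replicate 1 (n = 394) and -0.0814 in replicate 2 (n = 392). The points share their lists and local base composition, and members at neighbouring places are not independent: 102 lay within 10 kb of another. The H3K27ac percentile had medians of 67.4 and 57.5, beside 67.5 and 58.8 for all shared H3K27ac stretches. The H3K27me3 percentile had medians of 78.7 and 88.5, where all shared H3K27me3 stretches had 64.2 and 76.2. The members' values come from peaks over the both-marked bases only. Those of all stretches come from peaks over the whole stretch, so the measures are not alike.

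Genes of the pallium and its projection neurons with promoter H3K27ac were members in 8 of 20 cases (40.0%), beside 1.71% of all protein-coding genes. These included *Emx2*, *Otx1*, *Lhx2*, *Pax6*, *Pou3f3*, *Fezf2* and *Emx1*. In this and the other lists a gene counted where its promoter met the member's H3K27ac stretch, and the both-marked bases could lie beside it. *Fezf2*, which specifies corticospinal neurons, was both-marked over its whole 5809 bp stretch, with H3K27ac at 64.9 and 74.5 in non-CINs and 58.3 and 54.4 in CINs and H3K27me3 at 96.8 and 95.5 against 96.0 and 96.3. *Emx1*, a marker of the pallial lineage, had H3K27ac at 63.1 and 51.7 in non-CINs and 23.5 and 19.4 in CINs, and H3K27me3 at 66.7 and 92.7 against 95.6 and 97.7. *Emx2* had H3K27ac at 89.3 and 96.0 in non-CINs and 74.7 and 73.5 in CINs. In *Pou3f3* H3K27ac was near the top of every list, at 99.3 and 99.9 against 99.4 and 99.5.

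Genes of the oligodendrocyte lineage gave 5 of 8 (62.5%), *Olig2*, *Nkx2-2*, *Olig1*, *Pdgfra* and *Sox10*. *Nkx2-2*, a homeobox gene of oligodendrocyte differentiation, had H3K27ac at 84.8 and 78.6 in non-CINs and 61.4 and 75.3 in CINs, and H3K27me3 at 94.9 and 97.3 against 99.2 and 99.0. *Olig1*, the neighbour of *Olig2*, had H3K27ac at 63.0 and 84.4 against 27.9 and 51.4. *Pdgfra*, the growth factor receptor of oligodendrocyte precursors, had a short region of 152 bp, with H3K27ac at 39.0 and 49.0 against 34.6 and 57.6, so there the populations overlapped. *Sox10*, which drives myelin genes, had H3K27ac at 5.42 and 42.0 in non-CINs and 19.8 and 44.1 in CINs, so there too the populations overlapped.

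Astrocyte and radial glia genes gave 3 of 21 (14.3%), *Id3*, *Id4* and the glutamate transporter gene *Slc1a2*. In this list 1 of 23 genes had a shared H3K27me3 stretch at the promoter itself. Interneuron and subpallial genes gave 4 of 9 (44.4%), among them *Sox6*, *Prox1* and *Nr2f2*. *Nr2f2*, a nuclear receptor gene of caudally born interneurons, had H3K27me3 at 99.5 and 99.5 in non-CINs and H3K27ac at 62.2 and 20.1. Notch and hedgehog pathway genes gave 6 of 22 (27.3%), among them the ligand genes *Dll1* and *Dll3*, the Notch effector *Hey2* and the hedgehog effector *Gli2*. In this list 2 genes had shared stretches of both marks at the promoter itself. At *Dll3* and *Gli2* no non-CIN list had a promoter H3K27me3 peak, and at *Dll1* 1 list had it.

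Immediate early genes gave 4 of 20 (*Nr4a2*, *Junb*, *Atf3* and *Dusp6*), secreted WNT, BMP and FGF ligands 1 of 10 (*Bmp7*), and imprinted genes 2 of 23 (8.70%), *Peg3* and *Usp29*, which share 1 region. No non-CIN list had an H3K27me3 peak at the promoter of *Junb*, *Dusp6* or *Bmp7*. Conversely, 3 ligand genes had shared stretches of both marks at the promoter and were not members. All protein-coding genes gave 1.71%. Of 64 patterning regulators of other lineages, all 64 had promoter H3K27me3, 1 had promoter H3K27ac, and that gene, *Eya1*, was a member. All 39 Hox genes had promoter H3K27me3 and none had promoter H3K27ac. Microglia genes gave 0 of 3, vascular and meningeal genes 0 of 2, cyclin-dependent kinase inhibitors 0 of 2 and ribosomal protein genes, a comparison list of housekeeping genes, 0 of 67.

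**Figure D4:**
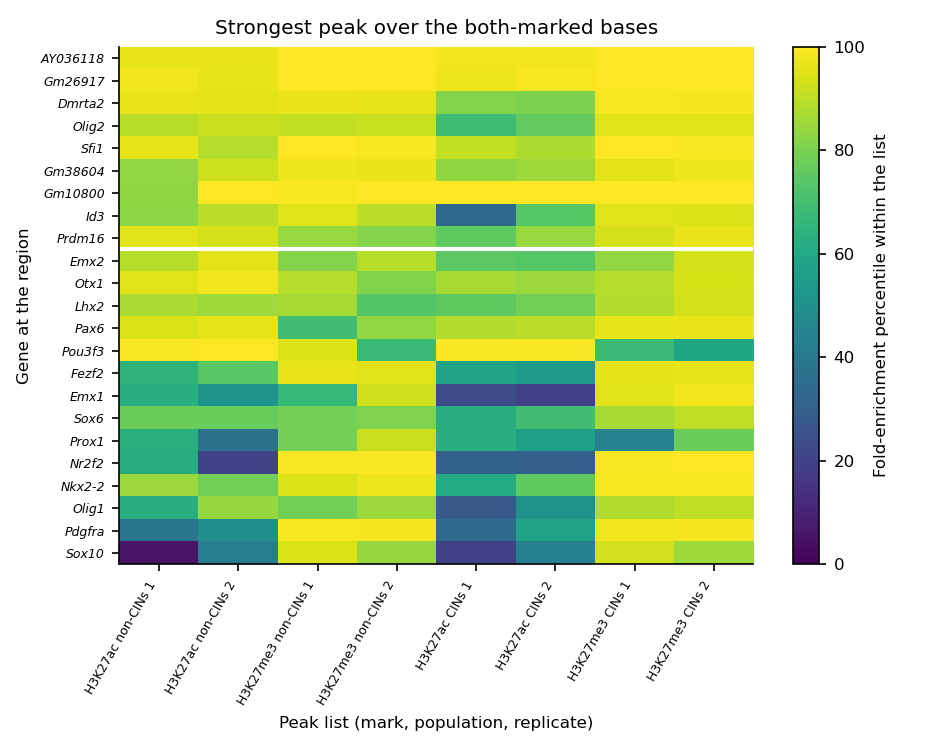
Fold-enrichment percentile within each of the 8 lists (colour, 0 to 100) of the strongest peak over the both-marked bases, for regions among the 10 highest-scored at promoters (above the white line) and for other members at pallial, interneuron and oligodendrocyte genes (below it). *Olig2* has H3K27ac at 89.2 and 92.0 in non-CINs and 69.1 and 76.0 in CINs, and *Pax6* has H3K27me3 at 69.4 and 83.8 in non-CINs and 96.4 and 97.2 in CINs.

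Regions with both marks in non-CINs were set against the CIN lists, which the rule did not use. Peaks anywhere over a member's H3K27ac stretch were counted, so the marks need not meet each other in CINs. A merged peak of each mark in both CIN lists was present in 236 of 397 members (59.4%, 54.5 to 64.2). With a single replicate of each mark this share was 48.9% or 65.0%, and over the both-marked bases only it was 54.4%. For H3K27ac alone it was 342 (86.1%, 82.4 to 89.2), against 77.8% of all shared non-CIN H3K27ac stretches, and 21 (5.29%, 3.49 to 7.95) had it in neither list, against 9.27%. For H3K27me3 alone it was 286 (72.0%, 67.4 to 76.2), against 59.3% of all shared non-CIN H3K27me3 stretches and 1.51% of all shared H3K27ac stretches. H3K27me3 was in neither CIN list in 21 members (5.29%, 3.49 to 7.95), against 12.7% of the H3K27me3 stretches. Members had a median length of 1146 bp against 835 bp over all H3K27ac stretches, and the part of length in these shares was not tested.

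The CIN H3K27me3 replicates differed. Replicate 1 had a peak over 294 members (74.1%) and replicate 2 over 368 (92.7%), where all shared non-CIN H3K27me3 stretches gave 65.7% and 80.9%, so the gap was in the lists as a whole. Of the 90 members with H3K27me3 in a single CIN list, 82 had it in replicate 2. Of the 34 with H3K27ac in a single CIN list, 23 had it in replicate 1. The single-list states thus fell mostly on 1 replicate of each mark.

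**Figure D5:**
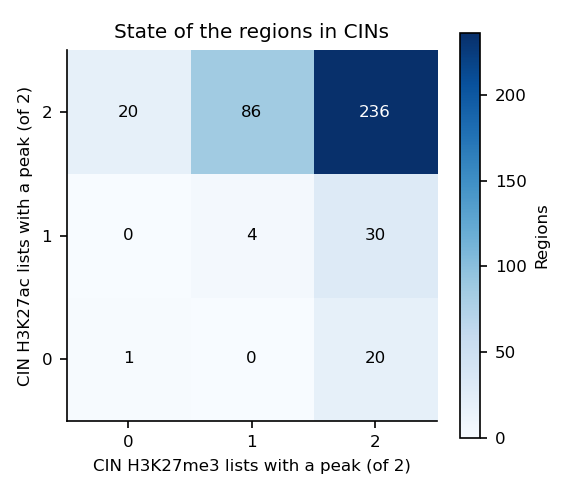
Number of the 397 regions by how many CIN lists (0 to 2) had a merged peak of H3K27ac (vertical) and H3K27me3 (horizontal) over the region. Both marks in both lists is the largest class with 236, and 20 regions kept H3K27me3 alone and 20 H3K27ac alone.

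Both marks were called in CINs more often where they were stronger in non-CINs. Of 4 groups of members ordered by score, the lowest had 34 of 97 members (35.1%, 26.3 to 45.0) with both marks in all CIN lists, and the highest 86 of 98 (87.8%, 79.8 to 92.9). The median both-marked length went from 226 bp to 952 bp between these groups, so strength and length moved together, and their parts were not tested. Promoter members had both marks in CINs in 139 of 211 (65.9%, 59.2 to 71.9) and the others in 97 of 186 (52.2%, 45.0 to 59.2). In the members of 10 kb or more it was 20 of 22 (90.9%, 72.2 to 97.5), with peaks anywhere in these long stretches counted.

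Where peaks of both populations lay over the both-marked bases, neither population stood higher throughout. The H3K27ac percentile was higher in non-CINs in 165 of 352 members in replicate 1 and 163 of 331 in replicate 2, where all shared H3K27ac stretches gave 54.8% and 55.3%. The H3K27me3 percentile was higher in non-CINs in 130 of 287 and 161 of 359, where all shared H3K27me3 stretches gave 56.8% and 63.2%. The shares over all stretches rest on the strongest peak over the whole stretch, so they are not a like measure.

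In 20 members H3K27me3 was kept in both CIN lists and H3K27ac was in neither. The 5 with the highest score were a 297 bp flank of *Dmrta2* (1509 bp from its TSS), an intron of *Tenm4*, the promoter of *Gcnt4*, a region 4457 bp from *Lef1* and the promoter of *Fzd10*. *Lef1* encodes a transcription factor of WNT signalling and *Fzd10* a WNT receptor. The *Lef1* region was both-marked over its 928 bp, with H3K27ac percentiles of 41.8 and 29.2 and H3K27me3 percentiles of 98.4 and 99.3 in non-CINs and H3K27me3 at 98.7 and 99.5 in CINs. The *Dmrta2* flank had H3K27ac at 60.4 and 95.8 in non-CINs, the latter from a peak that reaches beyond the flank. The longer *Dmrta2* stretch that follows it had H3K27ac in both CIN lists. The overlap was 1 bp at *Tenm4* (0.35% of the stretch), 144 bp at *Gcnt4* (16.5%) and 219 bp at *Fzd10*. H3K27ac was in the middle or lower part of its list in most of these 5, with *Tenm4* at 54.7 and 33.4, *Gcnt4* at 61.3 and 32.7 and *Fzd10* at 25.1 and 34.2.

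In another 20 members H3K27ac was kept in both CIN lists and H3K27me3 was in neither. The 5 with the highest score were at *Pnmal2*, *Pigz*, *Tnrc6c*, *Tnfsf4* and *Sox2ot*, with 73, 187, 68, 82 and 309 both-marked bp. *Pigz* encodes a mannosyltransferase of GPI anchors, *Tnrc6c* a protein of microRNA silencing, and *Sox2ot* is a long non-coding RNA that overlaps *Sox2*. *Pnmal2* had H3K27me3 percentiles of 75.2 and 77.4 in non-CINs, and H3K27ac at 72.9 and 76.7 in non-CINs and 88.1 and 71.8 in CINs. The *Sox2ot* region had H3K27ac at 76.4 and 51.3 in non-CINs and 98.6 and 93.9 in CINs, so it was the clearest of the 5 for H3K27ac that stood higher in CINs. In these 5 the overlap was a small part of the stretch, 7.39% to 16.0%, and in 4 of them it crossed an end of the H3K27me3 stretch.

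The same rule in CINs gave 663 regions of 35768 shared H3K27ac stretches (1.85%), of which 52.2% lay at a promoter, with a median of 385 both-marked bp. Of the 397 non-CIN members, 244 (61.5%) met one of these, and of the 663 CIN regions, 247 (37.3%) met a non-CIN member. Of the CIN regions, 273 (41.2%) had both marks in all non-CIN lists, 113 (17.0%) had H3K27me3 in both and H3K27ac in neither, and 88 (13.3%) had H3K27ac in both and H3K27me3 in neither. The lists differ in size between the populations, and the difference in number was not tested.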

How the data were processed

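Native ChIP for H3K27ac and H3K27me3 was analysed in 8 of 12 samples, 2 per mark and population, which the labels number as replicates. The other 4 are inputs. Reads were aligned to mm10 with BWA 0.7.15, and the authors called broad peaks per replicate with MACS2 and the matched input as control (version 2.2.7 in the submitters' processing notes). Each deposited peak has a score scaled by the authors' peak caller, a fold enrichment (ratio of ChIP to input), and a −log10 *p*-value and −log10 *q*-value, as deposited. These are not read counts. Depth is not known from the lists, so absence of a peak means only that none was called, and the lowest −log10 *q* ranged from 2.21 to 2.60.

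Peaks 500 bp or less apart were merged per list and intersected between replicates. Promoters came from the GENCODE vM21 basic annotation. Named regions were the 10 highest-scored at promoters, the 5 highest-scored elsewhere, the 5 with the longest overlap, the 5 highest-scored of each kind with a single mark in CINs, members at genes of 14 lists, and the edge of the rule. Some of these are not reported here. The members and gene lists were chosen with earlier results of these data known. No test was run on values of the 4 non-CIN lists. Alternatives changed the merging gap, *q* threshold, overlap, replicates, promoter window and domain definition. Leaving out repeat-masked members or members high in all 8 lists was chosen after seeing the data. Python 3.11.15, NumPy 2.4.6, SciPy 1.17.1, pysam 0.24.0, matplotlib 3.10.9 and bedtools 2.31.1 were used, and interval operations were tested on simulated data.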

Additional observations from a re-analysis of the deposited data

How the results depend on the processing

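The 397 regions became 172 with peaks of a −log10 *q* of at least 4, and 951 to 1414 with a single replicate of each mark, and 9 other settings stayed within 1.5 times, with 389 without repeat-masked members and 385 without members high in all 8 lists. The promoter share (53.1%) was 40.4% without merging and 31.0% where the both-marked bases had to lie at the promoter. The share with both marks in CINs (59.4%) moved by less than the spread between single replicates (48.9% and 65.0%) in the other settings.

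The median both-marked length (311 bp) was 275 bp without merging, 367.5 bp with a 1000 bp gap, 388.5 bp with a −log10 *q* of at least 4, 458.5 bp with an overlap of at least 200 bp and 407.5 bp with at least 50% of the shorter stretch. It was 325 to 326 bp with a single replicate, 307 bp without X, Y and contigs, 309 bp without repeat-masked members and 302 bp without members high in all 8 lists. The inside share (27.7%) was 29.7% without merging, 33.1% with a 1000 bp gap, 33.3% with an overlap of at least 200 bp, 38.2% with at least 50% of the shorter stretch, 27.5% to 28.1% with a single replicate, 26.2% without repeat-masked members and 26.8% without members high in all 8 lists. It was 52.1% with H3K27me3 stretches joined across 3000 bp and 43.1% with the union of both H3K27me3 lists as domains. The cause was not tested. Single replicates were nearly alike in these 2 values, so that even small shifts exceeded their spread.

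With a replicate block, in which the marks had to overlap within each replicate number, there were 494 regions, with a median of 505 both-marked bp and 37.0% inside, and with the numbers crossed 492, 505 bp and 37.2%. The length and position then came from the union of both H3K27me3 lists. The replicates share only a number, so the block says nothing of pairing.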
